A study of Mus musculus with 3 samples.

Results

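The cells described here are those of 4 naive mouse brains, sorted into named subsets by gates that the authors placed on each cell. A gate is a yes-or-no call per cell; the names of these gates are those of surface proteins and of the cell types that carry them. The members are all values of 7 gate columns of the deposited cell annotation (CD45LowvHigh, MicrogliaBAMIDs, B220Status, AdaptivevBMDM, NKorTcell, TCellSubtype and BMDMSubsets), counted per brain and crossed with the authors' 10 RNA clusters. Of 3874 deposited naive cells, 1138 had a cell barcode that also stood in the annotation of the metastasis-bearing brains. These were left out, which kept 2736 of the 11179 cells kept in the whole series. The quantity throughout is the composition of a brain's recovered cells, not the expression of a gene.

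The study pooled brain immune cells of 8 female mice of 2 to 3 months in 1 droplet preparation, with RNA, 35 barcoded surface antibodies and 8 hashtags (antibodies that mark every cell of a brain with the same barcode) sequenced as separate libraries. Brains with homozygous loss of Cx3cr1 (Cx3cr1-/-, "Hom" in the annotation) were set against heterozygous brains (Cx3cr1+/-, "Het"), both on a C57Bl/6 background, so no wild-type brain was measured. The naive mice had no tumour, and the metastasis-bearing mice, used below for comparison, had received E0771 mammary carcinoma cells through the carotid artery about 2 weeks earlier. Each naive genotype had 2 brains, each sampled as 1 hemisphere after perfusion and enriched on a Percoll gradient of 70, 37 and 30%. After the shared barcodes were left out, Hom brains 1 and 2 held 337 and 905 cells, and Het brains 1 and 2 held 957 and 537 cells. The shared barcodes had made up 28.0 and 33.3% of the deposited cells of the Hom brains, against 25.2 and 30.2% of those of the Het brains. In Hom brain 2, 299 of its 452 shared barcodes were assigned to Hom brain 1 in the metastasis-bearing annotation. Among gate values with any cell kept, the shared barcodes ranged from 4.94% of the deposited Microglia to 70.9% of the deposited Ly6Chigh cells, and with them kept in, 0 gate values were called by edgeR and 3 passed an unadjusted p under 0.05.

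Cx3cr1 encodes the receptor for fractalkine (CX3CL1), a chemokine that neurons present to microglia, and circulating monocytes and subsets of lymphocytes also carry the receptor. CD45, the leukocyte common antigen, is low on microglia and high on leukocytes that come from the blood, so it is the usual first gate in a brain suspension. Within the CD45-high cells, B220 (a form of CD45) marks B cells and plasmacytoid dendritic cells, CD3 with CD4 or CD8 marks T cells, NK1.1 marks natural killer cells, and Ly6C and Ly6G separate classical monocytes from neutrophils. BAM, BMDM and NKCells are the annotation's own names. BAM is the usual abbreviation of border-associated macrophages, which sit in the meninges and around vessels, and BMDM that of bone-marrow-derived macrophages.

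Every count below rests on the hashtag read in each cell, so the barcodes of the 4 hashtags are shown first. Capitals mark a base that none of the other 3 naive hashtags has at that position, counted from the 5′ end.
Hom brain 1, M-HTO-5: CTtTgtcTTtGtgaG
Hom brain 2, M-HTO-6: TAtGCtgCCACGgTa
Het brain 1, M-HTO-1: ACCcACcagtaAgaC
Het brain 2, M-HTO-2: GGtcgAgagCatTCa
Any pair of these 4 barcodes of 15 bases differed at 11 or more positions. The antibodies whose names match the gates carried the following barcodes, shown because the per-antibody values and the gate thresholds were not analysed here and the names are the link between a gate and a protein.
CD45: tggctatggagcaga
CD11b: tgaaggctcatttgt
CD45R/B220: cctacacctcataat
CD3: gtatgtccgctcgat
CD4: aacaagacccttgag
CD8a: tacccgtaatagcgt
NK1.1: gtaacattactcgtc
Ly6C: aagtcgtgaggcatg
Ly6G: acattgacgcaacta

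The genotype labels were checked on the targeted gene. In cells gated Microglia, Cx3cr1 stood at 94.4 and 92.5 corrected UMIs per 1000000 (CPM) in the Hom brains, against 1566 and 1534 CPM in the Het brains. The 2 genotypes were far apart in both brains of each. Median RNA depth per cell was 6801 and 7096 UMIs in the Hom brains, against 6181 and 6801 UMIs in the Het brains. Median hashtag UMIs per cell were 159 and 88 in the Hom brains, against 118 and 138 in the Het brains, so Hom brain 2 had the lowest hashtag support.

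The first division was between CD45Low and CD45High cells. CD45Low cells were 74.8 and 68.0% of the cells of the Hom brains, against 86.2 and 72.3% in the Het brains. CD45High cells were 25.2 and 32.0% of the Hom brains, against 13.8 and 27.7% of the Het brains. The genotypes overlapped, because Het brain 2 lay between the Hom brains while Het brain 1 held fewer CD45High cells than any other brain. On average the CD45High share was 28.6 ± 4.8% in Hom brains and 20.8 ± 9.9% in Het brains (SD, n = 2 each).

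Each gate value was tested with edgeR's quasi-likelihood test on cells per brain, with the brain's total cells as the offset. With 0 of 16 gate values called (0%) at a Benjamini-Hochberg adjusted p under 0.05, no share was shown to differ between the genotypes. DESeq2 and limma also called 0, and at an unadjusted p under 0.05 edgeR passed 1 value and each of the other tools 2. The log2 fold change of CD45High, Hom over Het, was 0.48 (SE 0.49, edgeR adjusted p = 0.943), and without Het brain 2 it was 1.07 (edgeR adjusted p = 0.0233), past the threshold. For a single share, the exact two-sided permutation test of 2 against 2 brains cannot go below p = 0.333. The shares of a brain add up, so a higher share of one subset lowers the others.

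**Figure D1:**
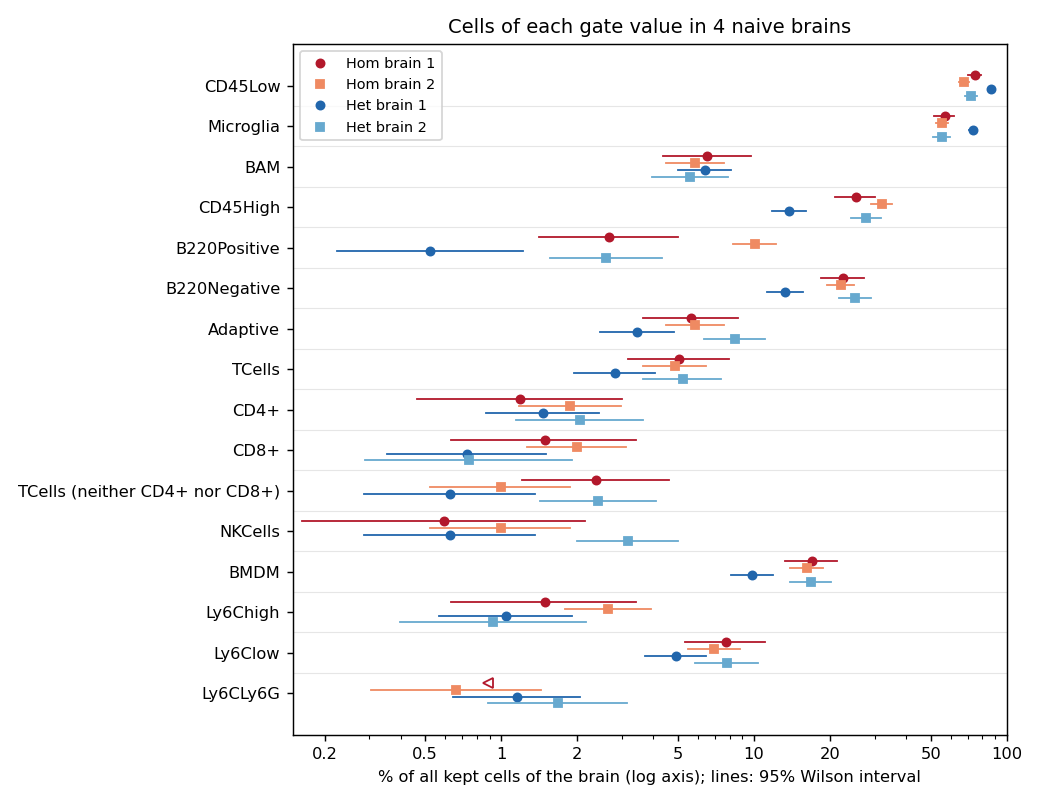
Share of a brain's kept cells that carried each gate value, in percent on a log axis, for 2 Hom brains (red tones) and 2 Het brains (blue tones); lines are 95% Wilson intervals, and the open triangle for Ly6CLy6G is the upper limit (0.890%) that 0 cells in Hom brain 1 allow. Het brain 1 stands apart from the other brains for CD45Low, Microglia and CD45High, and Hom brain 2 for B220Positive at 10.1%.

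Microglia, the resident macrophages of the brain, were the most numerous named cell type. Cells gated Microglia were 56.7 and 55.5% of the Hom brains (191 and 502 cells), against 73.5 and 55.5% of the Het brains (703 and 298 cells). Both Hom brains and Het brain 2 lay close together and Het brain 1 above them. The log2 fold change was -0.20 (SE 0.44, edgeR adjusted p = 0.980), and without Het brain 1 it was 0.01. RNA matched the gate: 69.6% of these cells were in cluster 0, the microglia-like cluster, and the summed level of the 9 microglia markers was 14855 and 15145 CPM in the Hom brains, against 16665 and 16290 CPM in the Het brains. The purinergic receptor gene P2ry12 had a UMI in 98.4% and Tmem119 in 96.7% of the gated cells, pooled over brains. In CD8+ T cells, which should lack both, the shares were 29.4 and 14.7%, at median depths of 6301 RNA UMIs there and 6211 in the Microglia gate. A further 28.2% of them were in cluster 1, an unnamed cluster of few UMIs. Turned around, cluster 0 was gated Microglia in 91.8 and 94.5% of its cells in the Hom brains and in 97.6 and 95.2% in the Het brains.

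Cells gated BAM had nearly the same share in every brain. They were 6.53 and 5.86% of the Hom brains (22 and 53 cells), against 6.37 and 5.59% of the Het brains (61 and 30 cells). The log2 fold change was 0.04 (SE 0.48, edgeR adjusted p = 0.988). As a share of the cells gated BAM or Microglia they were 10.3 and 9.55% in Hom brains and 7.98 and 9.15% in Het brains, with no overlap, as for 10 of the 16 gate values (62.5%) taken as shares within their column.

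The RNA of the BAM-gated cells was mixed and fitted the name only in part. They were spread over the Krt8-high cluster 4 (30.1%), cluster 5 (24.7%), the microglia-like cluster 0 (15.1%) and the endothelial-like cluster 6 (14.5%), pooled over brains. The leading genes of cluster 5 included Pf4 and Mrc1 of the list for border-associated macrophages and Cd209a of the dendritic cell list. The 7 macrophage markers of the list for border-associated macrophages summed to 433 and 387 CPM in the Hom brains, against 506 and 1353 CPM in the Het brains. The 9 microglia markers summed to 5179 and 4686 CPM in the Hom brains, against 4668 and 5660 CPM in the Het brains, above the macrophage list in every brain. The mannose receptor gene Mrc1, which border-associated macrophages express, had a UMI in 21.7% of the gated cells, against 2.6% of Microglia, and Ptprc, which encodes CD45, in 50%. The 4 choroid plexus markers summed to 73151 and 36272 CPM in the Hom brains, against 218 and 270 CPM in the Het brains. In cluster 9, the choroid plexus-like cells led by Ttr, 50 and 42.9% of its cells in the Hom brains were gated BAM, and 0% in the Het brains, on 6 and 7 cells against 1 and 8 cells. The part of these other cell types in the BAM share was not tested, and the subset is called by its gate.

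**Figure D2:**
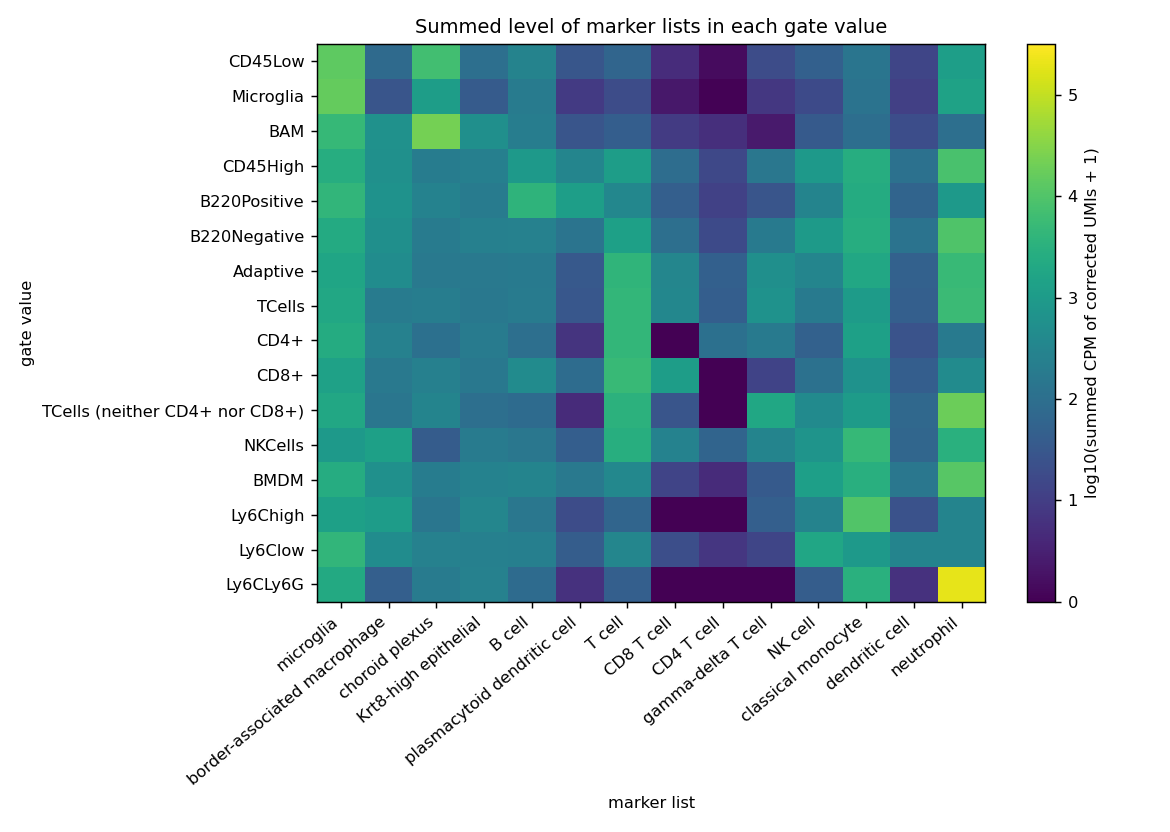
Summed level of 14 marker lists (columns) in each gate value (rows), as log10 of the summed CPM of corrected UMIs plus 1, all 4 naive brains pooled. Ly6CLy6G cells are brightest for the neutrophil list. BAM-gated cells are brightest for the choroid plexus list, which was high in the Hom brains only. Of the 166 BAM-gated cells, 6 were in cluster 9, all of them in Hom brains. NKCells, which all had a Cd3e UMI, show more of the T cell than of the NK cell list.

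B220Positive cells had the largest log2 fold change of the 16 gate values. They numbered 9 and 91 cells in the Hom brains, against 5 and 14 cells in the Het brains. As shares these were 2.67 and 10.1% of the Hom brains and 0.522 and 2.61% of the Het brains, so the lower Hom brain lay just above the higher Het brain. The 95% Wilson intervals of those adjoining brains, 1.41 to 4.997% for Hom brain 1 and 1.56 to 4.33% for Het brain 2, covered nearly the same range. Intervals and floors of single brains here cover counting error only.

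Of the 16 gate values, 4 (25%) had no overlap between the genotypes as shares of all cells, and B220Positive was one of them. The log2 fold change was 2.22 (SE 0.77) with an unadjusted p of 0.0141 and an adjusted p of 0.225 by edgeR, which misses the threshold. The call depended on single brains and on the cells kept. Without Hom brain 2 the log2 fold change was 0.86 (edgeR adjusted p = 0.957), and without Het brain 2 it was 3.76 (edgeR adjusted p = 0.0233). With all 4 brains, it passed the threshold without the largest cluster (2.09, edgeR adjusted p = 0.0146), without the lowest 25% by hashtag margin (3.04, edgeR adjusted p = 0.00221) and with at least 100 hashtag UMIs (3.28, edgeR adjusted p = 0.000208). The minimum of 100 kept 87.9% of the B220Positive but 31.4% of the CD45Low cells of Hom brain 2, against 69.0% of the CD45Low cells of Hom brain 1 and 56.0 and 64.7% of those of the Het brains. The B220Positive share of Hom brain 2 was 20.5% of the cells kept by that minimum. As a share of CD45High cells, B220Positive cells were 10.6 and 31.4% in the Hom brains, against 3.79 and 9.40% in the Het brains. B220Positive is among the 10 of 16 gate values without overlap on this scale, so such separation was common.

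The cluster crossing showed which B220Positive cells set Hom brain 2 apart. Cluster 7, the B cell-like cluster led by immunoglobulin genes and Cd79a (a part of the B cell receptor), held 57.1% of all B220Positive cells. B220Positive cells of cluster 7 numbered 2 and 60 in the Hom brains, against 3 and 3 in the Het brains. The brain with 60 was Hom brain 2. As shares of all cells they were 0.593 and 6.63% of the Hom brains, against 0.313 and 0.559% of the Het brains, so Hom brain 1 lay just above Het brain 2 on 2 and 3 cells. Across 58 crossings of gate values and clusters with at least 10 cells, 2 (3.45%) were called by edgeR, both higher in Hom, and 19 (32.8%) had shares that did not overlap between the genotypes. The called crossings were B220Positive in cluster 7 (log2 fold change 3.19, SE 0.88, edgeR adjusted p = 0.0140) and CD45High in cluster 7 (3.097, SE 0.86, edgeR adjusted p = 0.0140). These fits used 1 common dispersion for all crossings, not the spread of each crossing. The share of B220Positive cells in cluster 7 was 3.61 ± 4.27% in Hom brains and 0.436 ± 0.173% in Het brains (SD, n = 2 each). For that share, the exact two-sided permutation test gave p = 0.333.

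Both called crossings were nearly the same cells, since CD45High cells of cluster 7 numbered 3 and 65 in the Hom brains and 3 and 4 in the Het brains. Without Hom brain 2, 0 crossings were called by edgeR and 1 passed an unadjusted p under 0.05; CD45High in cluster 7 then had a log2 fold change of 0.83, and B220Positive in cluster 7 had under 10 cells. Without Het brain 1 or Het brain 2, 0 were called as well (1 and 0 at an unadjusted p under 0.05), with edgeR adjusted p-values of 0.841 and 0.497 for both crossings. The log2 fold changes were then 2.78 and 3.59 for B220Positive and 2.52 and 3.73 for CD45High in cluster 7. Cluster 7 as a whole, without any gate, held 3 and 76 cells in the Hom brains, against 8 and 9 cells in the Het brains, or 0.890 and 8.398% against 0.836 and 1.68%. The whole cluster was not called among the 10 clusters, of which 0 (0%) passed by edgeR, 0 at an unadjusted p under 0.05 and 0 by DESeq2 or limma (log2 fold change 2.03, SE 0.93, edgeR adjusted p = 0.581). Without Hom brain 1 it was called (2.81, edgeR adjusted p = 0.0376), and without Hom brain 2 its log2 fold change was -0.41 (edgeR adjusted p = 0.966).

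The gate caught a different part of cluster 7 in each brain. It called B220Positive 66.7 and 78.9% of cluster 7 in the Hom brains, against 37.5 and 33.3% in the Het brains. In the Het brains most other cells of that cluster were CD45Low, at 62.5 and 55.6%, against 0 and 14.5% in the Hom brains. With the cells of the cluster as the denominator, B220Positive in cluster 7 had a log2 fold change of 1.14 (edgeR adjusted p = 0.462).

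The RNA of B220Positive cells fitted the name in part. The 7 B cell markers summed to 3165 and 3997 CPM in the Hom brains, against 4927 and 2515 CPM in the Het brains, and Ms4a1, the gene of CD20, had a UMI in 62.2% of the gated cells, against 2.0% of B220Negative cells. The 4 markers of plasmacytoid dendritic cells summed to 885 and 1152 CPM in the Hom brains, against 3731 and 891 CPM in the Het brains. One of these markers, Ly6d, was also a leading gene of the B cell-like cluster 7 (1450 CPM, against 28.7 CPM in the other cells). The sum therefore does not separate plasmacytoid dendritic cells from B cells. In Het brain 2, 6 of the 14 B220Positive cells were in cluster 2, the unnamed cluster led by S100a8, S100a9 and Camp, which neutrophils express. Those 14 cells had a median of 47768 RNA UMIs, against 12879 and 8030 UMIs for the B220Positive cells of the Hom brains and 11632 UMIs for those of Het brain 1. Whether these deep cells held RNA of more than 1 cell was not tested.

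**Figure D3:**
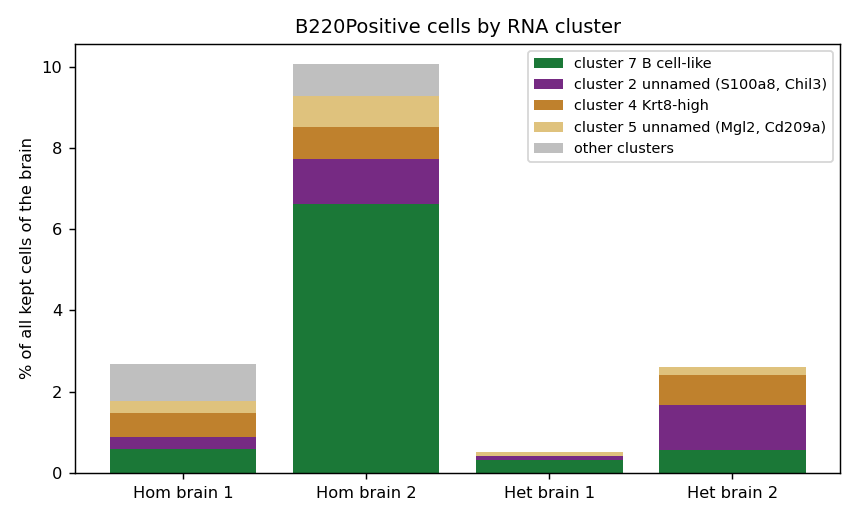
B220Positive cells as a percentage of all kept cells of each of 4 naive brains, stacked by RNA cluster. Hom brain 2 reaches 10.1%, most of it cluster 7, while Hom brain 1 (2.67%) and Het brain 2 (2.61%) are alike in height, and Het brain 1 stands at 0.522%.

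B220Negative cells, the rest of the CD45High cells, were 22.6 and 22.0% of the Hom brains, against 13.3 and 25.1% of the Het brains (log2 fold change 0.22, SE 0.48, edgeR adjusted p = 0.980). The annotation divides them by 2 columns, named AdaptivevBMDM and AdaptiveorBMDM. AdaptivevBMDM matched, cell for cell, the presence of RNA of a single gene, although gates of this kind are named for surface proteins. Of the 333 deposited naive cells with the value Adaptive, all 333 had a UMI of Cd3e, the gene of the CD3 epsilon chain, and of the 886 with the value BMDM, 0 had one. Among 17453 genes, Cd3e was the 1 gene that split this column without exception, and 0 genes did so for any of the other 6 gate columns. In AdaptiveorBMDM, 52.8% of the deposited Adaptive cells and 11.8% of the BMDM cells had a Cd3e UMI. NKorTcell and TCellSubtype continue AdaptivevBMDM, so that every NKCells and T cell value below is a share of cells with Cd3e RNA, while BMDMSubsets continues AdaptiveorBMDM.

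The choice of column changed the picture of the adaptive cells. By AdaptivevBMDM, Adaptive cells were 5.64 and 5.86% of the Hom brains, against 3.45 and 8.38% of the Het brains, with the Hom brains between the Het brains (log2 fold change -0.01, SE 0.55, edgeR adjusted p = 0.988). By AdaptiveorBMDM they were 11.3 and 8.95% of the Hom brains, against 4.91 and 6.52% of the Het brains, with no overlap. Of 537 B220Negative cells, 139 (25.9%) had different values in the 2 columns, at 35.5 and 28.1% in the Hom brains and 14.2 and 28.1% in the Het brains. BMDM cells by AdaptivevBMDM were 16.9 and 16.1% of the Hom brains, against 9.82 and 16.8% of the Het brains (log2 fold change 0.32, SE 0.48, edgeR adjusted p = 0.980). That value also held lymphocytes by RNA: 28.9% of its cells were in cluster 3, led by Nkg7 and Xcl1, which cytotoxic lymphocytes express, close to the 28.4% in cluster 2.

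T cells in a naive brain are few and lie mostly in the meninges and choroid plexus. TCells were 5.04 and 4.86% of the Hom brains (17 and 44 cells), against 2.82 and 5.21% of the Het brains (27 and 28 cells), and 81.0% of them were in cluster 3. The shares of the Hom brains lay within the range of the Het brains (log2 fold change 0.33, SE 0.53, edgeR adjusted p = 0.980). The 6 T cell markers, among them the Cd3e that defines the column, summed to 4558 and 4250 CPM in the Hom brains, against 4103 and 4392 CPM in the Het brains.

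CD8+ T cells, the cytotoxic subset, were the T cells whose shares of all cells did not overlap. They numbered 5 and 18 cells in the Hom brains, against 7 and 4 cells in the Het brains, which was 1.48 and 1.99% against 0.731 and 0.745% of all cells. Both Hom brains lay above both Het brains, but on counts this small the 95% Wilson interval was 0.635 to 3.43% in Hom brain 1 and 0.290 to 1.90% in Het brain 2. The log2 fold change was 1.26 (SE 0.63, edgeR adjusted p = 0.364). It stayed between 0.88 and 1.41 under 17 other settings, none of which called it, with edgeR, DESeq2 or limma adjusted p-values of 0.0877 to 0.957. As a share of T cells, CD8+ cells were 29.4 and 40.9% in the Hom brains, against 25.9 and 14.3% in the Het brains. RNA matched this gate, with a Cd8a UMI in 91.2% of CD8+ cells and in 0% of the 46 CD4+ cells, where 0 cells allow a share of up to 6.52%, at median depths of 6301 and 6406 RNA UMIs.

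CD4+ T cells, the helper and regulatory subset, overlapped between the genotypes as shares of all cells. They were 1.19 and 1.88% of the Hom brains (4 and 17 cells), against 1.46 and 2.05% of the Het brains (14 and 11 cells), with a log2 fold change of -0.09 (SE 0.60, edgeR adjusted p = 0.988). As a share of T cells they were 23.5 and 38.6% in the Hom brains, against 51.9 and 39.3% in the Het brains, without overlap on this scale. A Cd4 UMI was found in 47.8% of them and in 0% of the 34 CD8+ cells, and Foxp3, the transcription factor gene of regulatory T cells, in 15.2% of the CD4+ cells. The hashtag support of this subset was uneven: the median was 46 hashtag UMIs in Hom brain 2, against 2843 in Hom brain 1 and 2318 and 1886 in the Het brains. With at least 100 hashtag UMIs, 4 and 7 CD4+ cells were left in the Hom brains and 12 and 11 in the Het brains.

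TCellSubtype keeps the name TCells for cells gated neither CD4+ nor CD8+. These were 2.37 and 0.994% of the Hom brains (8 and 9 cells), against 0.627 and 2.42% of the Het brains (6 and 13 cells), so each genotype had a high and a low brain (log2 fold change 0.11, SE 0.76, edgeR adjusted p = 0.988). Their RNA carried the genes of gamma-delta T cells, a lineage with another receptor that lives in the meninges: the 4 markers of that list summed to 1515 and 2707 CPM in the Hom brains, against 1856 and 1550 CPM in the Het brains. The receptor gene Trdc had a UMI in 63.9% of them, against 10.9% of the CD4+ and 0% of the CD8+ cells. In Het brain 1 the 7 neutrophil markers summed to 101903 CPM in this subset, against 42.8 CPM in Het brain 2 and 160.4 and 199.97 CPM in the Hom brains. The level in Het brain 1 rests on 6 cells, 1 of them in cluster 2, and each Hom brain also had 1 cell there. Whether a single cell set that level was not tested.

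By RNA, the subset named NKCells matched its name weakly. It held 2 and 9 cells in the Hom brains, against 6 and 17 cells in the Het brains, or 0.593 and 0.994% against 0.627 and 3.17%. Het brain 2 stood above the other 3 brains, and the log2 fold change of -1.02 (SE 0.81, edgeR adjusted p = 0.747) became 0.47 without that brain. Of these cells 61.8% were in cluster 2 and 29.4% in cluster 3. The 7 NK cell markers summed to 57.1 and 386 CPM in the Hom brains, against 1097 and 839 CPM in the Het brains, while the 6 T cell markers summed to 2379 and 2676 CPM in the Hom brains, against 3684 and 2510 CPM in the Het brains. The T cell list was above the NK cell list in each brain. All cells with an NKorTcell value had a Cd3e UMI, and Cd3e is on the T cell list. That order was thus partly fixed by the column and says little about the name. Ncr1, the gene of the NK receptor NKp46, had a UMI in 14.7% of NKCells, and in 19.1% of the Ly6Clow subset.

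The brain assignment of the NKCells was also the weakest. Their medians were 3580 and 93 hashtag UMIs in the Hom brains, against 58 and 30 in the Het brains, with 41527 RNA UMIs over all 34 cells. With at least 100 hashtag UMIs, 2 and 4 of them were left in the Hom brains and 2 and 0 in the Het brains. All 17 cells of Het brain 2, the brain that set the direction, were under that minimum. The part of RNA from more than 1 cell in this subset was not tested.

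**Figure D4:**
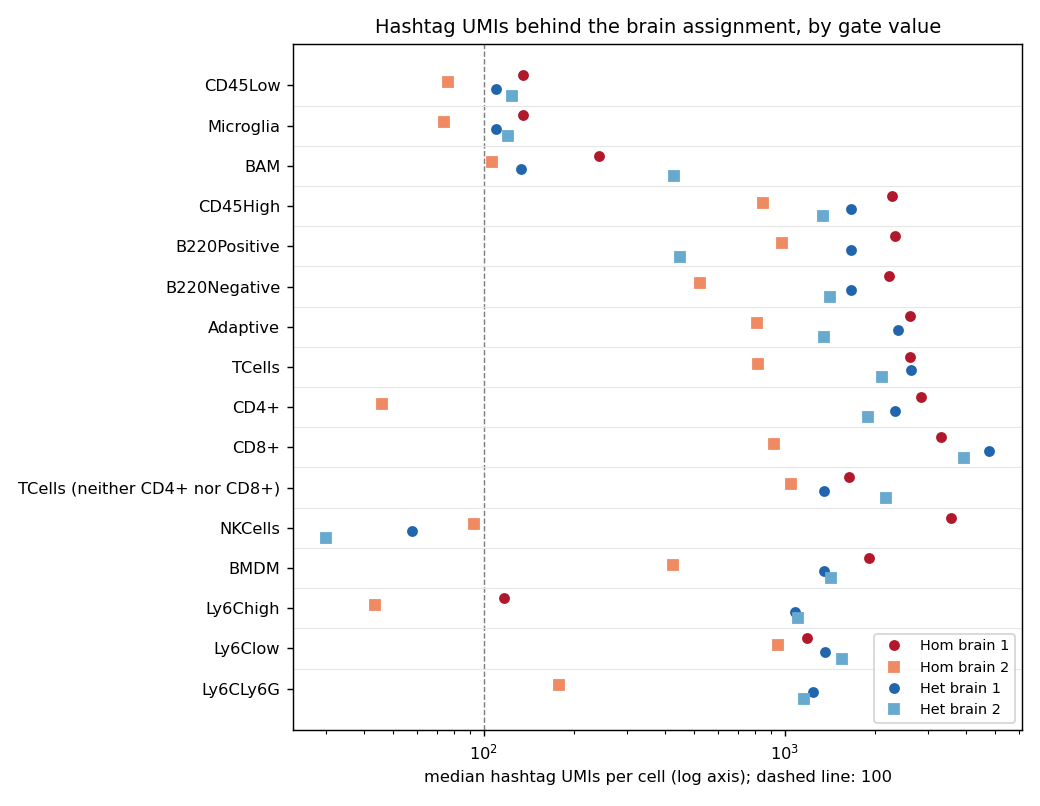
Median hashtag UMIs per cell (log axis) for each gate value in 2 Hom brains (red tones) and 2 Het brains (blue tones); the dashed line marks 100. Hom brain 2 is lowest for CD4+ (46) and Ly6Chigh (43.5), and Het brain 2 for NKCells (30).

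The BMDMSubsets column, named for bone-marrow-derived macrophages, had 3 values named for Ly6C and Ly6G. A further value, CD11b+, had 1 deposited cell, whose barcode was shared with the metastasis-bearing brains, so 0 of its cells were kept. Ly6Chigh cells, the gate of classical monocytes, numbered 5 and 24 cells in the Hom brains, against 10 and 5 cells in the Het brains. Their shares were 1.48 and 2.65% in the Hom brains and 1.04 and 0.931% in the Het brains, without overlap (log2 fold change 1.12, SE 0.61, edgeR adjusted p = 0.364). In these cells the 6 classical monocyte markers summed to 10846 and 10767 CPM in the Hom brains, against 9145 and 9072 CPM in the Het brains. One of the markers, Chil3, was also a leading gene of cluster 2 (2265 CPM, against 19.8 CPM in the other cells). The cluster did not separate Ly6Chigh cells from neutrophils, since cluster 2 held 72.7% of the Ly6Chigh and 84.6% of the Ly6CLy6G cells. With the shared barcodes kept in, the log2 fold change was 1.12 (edgeR adjusted p = 0.258). The hashtag support of Ly6Chigh cells was uneven, with medians of 117 and 43.5 hashtag UMIs in the Hom brains, against 1079 and 1105 in the Het brains. With at least 100 hashtag UMIs, 3 and 7 cells were left in the Hom brains and 6 and 5 in the Het brains, or 1.20 and 1.79% against 1.06 and 1.38%. The shares then overlapped, and the log2 fold change was 0.35 (edgeR adjusted p = 0.729). Without the lowest 25% of cells by hashtag margin it was 0.16 (edgeR adjusted p = 0.933).

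Ly6CLy6G cells, the neutrophil gate, were the subset lower in both Hom brains. They numbered 0 and 6 cells in the Hom brains, against 11 and 9 cells in the Het brains. In Hom brain 1, 0 of 337 cells allow a share of up to 0.890%; Hom brain 2 stood at 0.663%, and the Het brains at 1.15 and 1.68%. The log2 fold change was -1.57 (SE 0.83, edgeR adjusted p = 0.364), and it stayed below 0 under all 17 other settings without passing the threshold in any. It was -6.10 without Hom brain 2, which leaves the Hom side with 0 cells so that the size is set by the fit, -1.05 without Hom brain 1, and -0.95 with the shared barcodes kept in. Neutrophil RNA was plain, with the 7 neutrophil markers at 115343 CPM in Hom brain 2, against 179868 and 304288 CPM in the Het brains, and S100a8, the alarmin gene, in 92.3% of all Ly6CLy6G cells, against 4.4% of Microglia. Over all cells of a brain, without a gate, the same 7 markers summed to 2520 and 1129 CPM in the Hom brains, against 3791 and 5444 CPM in the Het brains. These sums include the gated cells, so their order is not separate evidence for a lower share in Hom brains. In Hom brain 1, with 0 gated cells, all of the 2520 CPM was neutrophil RNA outside the gate. Whether the gate missed neutrophils there was not tested. With at least 100 hashtag UMIs, 0 and 3 cells were left in the Hom brains and 10 and 9 in the Het brains.

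Ly6Clow cells were the largest of the Ly6C subsets and did not separate the genotypes. They were 7.72 and 6.96% of the Hom brains (26 and 63 cells), against 4.91 and 7.82% of the Het brains (47 and 42 cells), with a log2 fold change of 0.21 (SE 0.49, edgeR adjusted p = 0.980). By RNA the gate was mixed, with 32.0% of its cells in cluster 5 (led by Mgl2, Cd209a and class II genes of antigen presentation), 23.0% in the lymphoid cluster 3, 14.0% in cluster 2, 12.9% in the Krt8-high cluster and 11.8% in the microglia-like cluster. The 7 NK cell markers summed to 2609 and 2096 CPM in the Hom brains, against 1903 and 707 CPM in the Het brains, above the levels in the NKCells subset in 3 of the 4 brains.

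**Figure D5:**
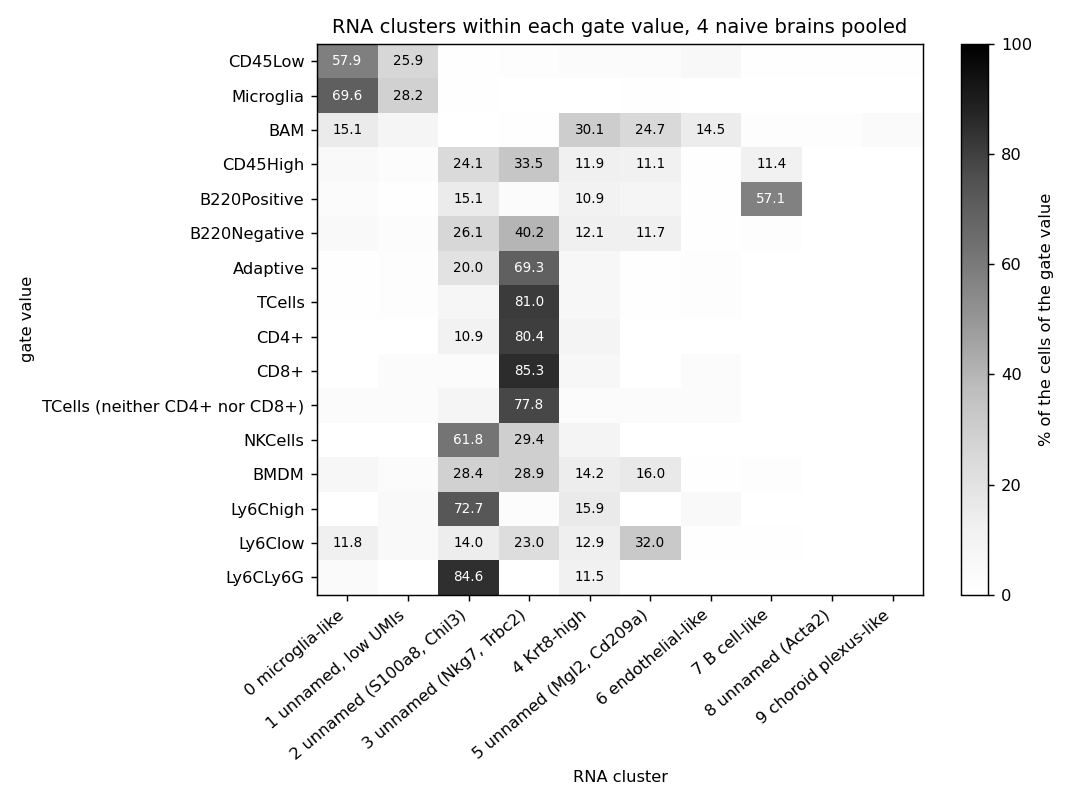
Percentage of the cells of each gate value (rows) that lay in each RNA cluster (columns), all 4 naive brains pooled; shares of 10% and above are printed. Microglia, the T cell values, Ly6Chigh and Ly6CLy6G each have most cells in 1 cluster, while BAM, BMDM and Ly6Clow are spread over 4 or more.

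For 8 subsets with gate values named alike in the metastasis-bearing brains, the genotype effect there was set against the naive one. The test was the interaction term of edgeR's quasi-likelihood test. The values were matched by name, and whether both annotations set these gates in the same way was not tested. The split by Cd3e RNA was examined in naive cells only. Of these 8, 0 (0%) were called and 0 passed an unadjusted p under 0.05, with edgeR adjusted p-values of 0.343 and above; no other tool was run on the interaction. CD8+ T cells were 1.95 and 2.45% of metastasis-bearing Hom brains and 1.55 and 4.83% of metastasis-bearing Het brains (difference in log2 fold change -1.83, SE 1.03, edgeR adjusted p = 0.343). These shares overlap, unlike those of the naive brains. CD4+ T cells went the other way, at 2.80 and 2.45% of metastasis-bearing Hom brains against 3.99 and 4.71% of metastasis-bearing Het brains. Among the 8 subsets, shares did not overlap for CD8+, Ly6Chigh and Ly6CLy6G in naive brains. With metastases they did not overlap for CD4+ and CD45Low CD11b-positive cells. Ly6Chigh cells were 6.46 and 11.6% of metastasis-bearing Hom brains, against 6.94 and 11.3% of metastasis-bearing Het brains (difference -1.13, SE 0.97, edgeR adjusted p = 0.548). The neutrophil gate stood at 0.923 and 1.93% in metastasis-bearing Hom brains and at 2.29 and 1.38% in metastasis-bearing Het brains (difference 1.26, SE 1.13, edgeR adjusted p = 0.548). CD45Low CD11b-positive cells, the gate that holds microglia, stood at 5.30 and 6.76% of metastasis-bearing Hom brains and 36.0 and 9.04% of metastasis-bearing Het brains, against 63.2 and 61.3% of naive Hom brains and 79.8 and 61.1% of naive Het brains (difference -1.72, SE 0.88, edgeR adjusted p = 0.343). Without Het metastasis-bearing brain 2 this subset was called (difference -2.40, edgeR adjusted p = 0.0133), and without Het metastasis-bearing brain 1 the CD8+ T cells were (difference -2.42, edgeR adjusted p = 0.0400).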

How the data were processed

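Per the labels, 8 brains were stained singly, hashed, pooled and captured with droplet chemistry version 3. Per the submitters' processing notes, Cell Ranger 3.1, Seurat 3.1.1 and the mm10 build were used. The authors deposited cell annotations with RNA, antibody tag and hashtag UMIs as raw counts per cell, a hashtag margin (a score whose scale is not stated), clusters and gates. The RNA table deposited for naive brains holds the natural log (ln) of depth-corrected UMIs with 1 added; undoing the log gave whole numbers, to 1e-06 of the value, in 100% of 9282424 nonzero values. These corrected UMIs were summed over cells and scaled to 1000000 (CPM).

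Brains, as hashtags, were the replicates, taken from the annotation's own hashtag and genotype columns. Since 1 pool per library was sequenced, p-values rest on the spread between brains of this pool only. With 1 common dispersion, an edgeR p-value rests largely on a spread shared by the values of a family. It does not measure the spread of a single share between its own brains. Cells were counted per brain, gate value and cluster, with 337 to 957 cells per naive brain. Counts of at least 10 cells were fitted with edgeR 4.0.16 (1 common dispersion, quasi-likelihood test, log of total cells as offset, no covariate), adjusted by Benjamini-Hochberg within each family; gate values overlap, so the tests in a family are not independent. DESeq2 1.42.0 and limma 3.58.1 on log2 odds with 0.5 cells added were alternatives, beside those given in the closing section. Single shares have 95% Wilson intervals; a count of 0 is given with a floor of 3 cells. Clusters are called like a cell type where at least 3 of the 10 leading genes stood on 1 marker list; cluster 2, with 5 neutrophil genes and 1 classical monocyte gene, was left unnamed, as it also held most Ly6Chigh cells, and cluster 4 is called by a leading gene. All gate values and clusters are named, crossings where they hold 10% of a gate value or pass the test, and genes from marker lists or a cluster's leading genes; Cd3e's split of a gate column was found by searching all genes. No doublet caller was run; the authors' table holds cells with 1 hashtag. R 4.3.3, Python 3.11.15, numpy 2.4.6, pandas 2.3.3, scipy 1.17.1 and matplotlib 3.10.9 were used. The members and lists were chosen with earlier results of these data known. Barcode sequences are those of the deposited antibody list.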

Additional observations from a re-analysis of the deposited data

Results flagged for a closer look

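The AdaptiveorBMDM column, which the tests of gate values do not use, gave an Adaptive share that was 4.40 percentage points higher in Hom brains, on average, than in Het brains, with no overlap. It stands out because it lies outside the main measurement. With this column in place of AdaptivevBMDM, 0 gate values were called by edgeR, so Adaptive was not called either. Among all 16 values, 1 passed an unadjusted p under 0.05 by edgeR. The lowest edgeR adjusted p was 0.249, which was that of B220Positive.

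Of 150 cells with an NKorTcell value, 44 also carried a BMDMStatus value, so that the annotation placed them in the T and NK branch and in the myeloid branch at once. They numbered 4 and 14 in the Hom brains, against 2 and 24 in the Het brains, and 95 cells stood in neither branch.

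The Krt8-high cluster held 136 cells of naive brains, led by Rhox5, Krt8 and Wfdc2, with 11 and 60 cells in the Hom brains and 44 and 21 in the Het brains. No tumour cells had been injected into these mice. Whether these cells belong to the naive brains was not tested.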

How the results depend on the processing

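For the 16 gate values, B220Positive was the 1 value called by edgeR with at least 100 hashtag UMIs (adjusted p = 0.000208), without the largest cluster (0.0146), without the lowest 25% by hashtag margin (0.00221) and without clusters 1 and 4 (0.0168); settings with the hashtag minimum, without clusters 1 and 4, without cells in both branches and with AdaptiveorBMDM were chosen after seeing the data. Leaving out 1 brain gave 0 to 2 called gate values, 0 to 1 clusters, 0 to 2 crossings and 0 to 1 interactions. With at least 100 hashtag UMIs, 1 cluster was called (cluster 7, edgeR adjusted p = 0.0213). Of the crossings, 0 were called by edgeR with shared barcodes kept (6 at an unadjusted p under 0.05), with TMM factors (3) or with the cells of the cluster as the denominator (6), 0 by limma (4), and 1 by edgeR with the cells of the gate value as the denominator.

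B220Positive and CD45High were the gate values called under any setting. Signs turned for others, none of them called, and the cause was not tested. BAM was -0.33 with TMM factors, -0.35 with DESeq2, -0.21 without the largest cluster, -0.070 with at least 2000 RNA UMIs and -0.14 without clusters 1 and 4, on the log2 scale of Hom over Het. B220Negative was -0.014 with TMM factors, -0.024 with DESeq2 and -0.27 among the cells gated in its column. Adaptive was 0.23 with shared barcodes, 0.10 with limma, 0.41 with at least 100 hashtag UMIs, 0.23 without the lowest margins and 0.052 without clusters 1 and 4. CD4+ was 0.66 with shared barcodes and 0.43 without cells in both branches. TCells outside CD4+ and CD8+ were -0.15 with TMM factors, -0.077 with DESeq2, -0.13 without the largest cluster, -0.037 with at least 2000 RNA UMIs and -0.26 within the column. Ly6Clow was -0.064 with TMM factors and -0.073 with DESeq2. Leaving out 1 brain gave a range of -0.063 to 0.13 for BAM, -0.39 to 0.014 for Microglia, -0.18 to 0.74 for B220Negative, -0.53 to 0.74 for Adaptive, -0.026 to 0.74 for BMDM, -1.83 to 0.47 for NKCells, -0.082 to 0.80 for TCells, -0.54 to 0.19 for CD4+, -0.77 to 1.15 for the remaining TCells and -0.11 to 0.56 for Ly6Clow. NKCells had under 10 cells, and so no value, with at least 100 hashtag UMIs or without the lowest margins.

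No paired analysis was possible because a brain's number is its hashtag's place in a list and pairs nothing across genotypes. Counts of 0 to 24 cells per brain limit the CD8+, NKCells, Ly6Chigh and Ly6CLy6G values, and 2 brains per genotype limit all of them.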
